A study of Mus musculus with 6 samples.

Results

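The stretch of mouse chromosome 6 that holds Nanog, Dppa3, Gdf3 and Apobec1 was followed through 3 lists of ESRRB regions. A list region belonged to the neighbourhood when a summit, the point of highest signal in it, lay within 100 kb of the span of any of the 4 genes. In mm10 that window runs as chr6:122477792-122814633. It held 12 of the 13767 regions of the 2iL library, 7 of the 10970 regions at 48 h and 8 of the 7018 regions at 96 h. When overlapping regions were joined across libraries these were 12 of 18634 sites, and each of the 12 had a region in 2iL.

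The cells were E14, an established mouse embryonic stem cell line, and ESRRB binding was read by ChIP-seq, which sequences the DNA fragments that an antibody against the protein brings down. The 2iL library came from untreated cells in N2B27 medium with 2iL, which is 3 µM CHIR99021 (a GSK3 inhibitor), 1 µM PD0325901 (a MEK inhibitor) and the cytokine LIF. The other libraries came from cells plated as single cells and then kept without 2iL for 48 h or 96 h. All 3 used the same mouse monoclonal anti-ESRRB antibody. Each condition had 1 ESRRB library, with no replicate, so no difference between conditions could be tested and intervals below cover counting error only. The lists hold no expression data, so the state of the cells was not checked against marker genes. In a bulk library, binding in fewer cells and weaker binding in each cell cannot be told apart.

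ESRRB is an orphan nuclear receptor that binds DNA as a single molecule at a half-site with an extended 5′ end, and it is part of the network that holds embryonic stem cells in the naive state. Nanog encodes a homeobox transcription factor of that network and has enhancers in the DNA on both sides of the gene. Dppa3, also called Stella or PGC7, encodes a protein that shields DNA from demethylation in the early embryo and marks naive and germ cells. Gdf3 encodes a TGF-beta family ligand of pluripotent cells, and Apobec1 a cytidine deaminase that edits RNA. Beside them lies Slc2a3, which encodes the glucose transporter GLUT3.

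The Nanog promoter sequence is shown because the ESRRB summits of all 3 libraries fall within it. The line below gives the 250 bases before the first listed Nanog start, chr6:122707239-122707488 on the plus strand, from RefSeq on GRCm38.p6, the assembly of mm10. Capitals mark the letters GGTCA on either strand, the 3′ part of a nuclear receptor half-site.
Nanog promoter: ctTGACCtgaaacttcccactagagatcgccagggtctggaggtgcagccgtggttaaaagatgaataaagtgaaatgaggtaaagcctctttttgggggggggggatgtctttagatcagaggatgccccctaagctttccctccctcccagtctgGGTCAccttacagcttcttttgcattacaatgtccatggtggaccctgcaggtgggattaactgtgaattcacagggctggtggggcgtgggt
Counted from its 5′ end, the 2iL summit was at base 141, the 48 h summit at base 143 and the 96 h summit at base 188. The GGTCA on the plus strand was centred 19 bp downstream of the 2iL summit. The full ESRRB element TCAAGGTCA and its shorter form AAGGTCA, searched on both strands, had no match in this window or in the windows of the other Nanog start and of Apobec1. In promoters of the same length (300 bases, the last 50 of them after the start), the 9-letter element was found in 0.424% of 32817, AAGGTCA in 4.72%, AGGTCA in 16.3% and GGTCA in 40.5%. AGGTCA and GGTCA lie inside the longer elements and were added after the first searches. AGGTCA had 1 match in the Nanog window, in the 5′ capitals. Of the 4 genes, Nanog and Apobec1 had an entry in the promoter table.

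The first question is how much ESRRB signal the neighbourhood held in naive cells. Sites are named below by the distance of their 2iL summit from the first Nanog start at position 122707489, negative towards Apobec1. In 2iL, 10 regions lay within 100 kb of Nanog, as many as at Pou5f1, and 0.850% of the 21887 protein-coding genes had 10 or more. Dppa3 and Gdf3 each had 7 and Apobec1 had 6, and these counts share sites, because the 4 genes are neighbours. In that library 4.89% of genes had 7 or more and 8.13% had 6 or more. The median gene had 1, and 69.8% of genes had at least 1 2iL region within that distance. At 48 h Nanog, Dppa3, Gdf3 and Apobec1 had 6, 3, 3 and 2 regions, where 64.7% of genes had at least 1. At 96 h they had 6, 5, 5 and 4, where 54% of genes had at least 1. The 96 h counts for Dppa3, Gdf3 and Apobec1 include both parts of a weak site that was split. Of their 2iL regions, 4, 4 and 3 were called at 96 h. The 96 h count for Nanog was reached by 1.41% of genes and the 48 h count by 4.32%. For the other members, 24.8% of genes had 3 or more regions at 48 h and 41.5% had 2 or more. At 96 h 3.06% had 5 or more and 6.66% had 4 or more.

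**Figure D1:**
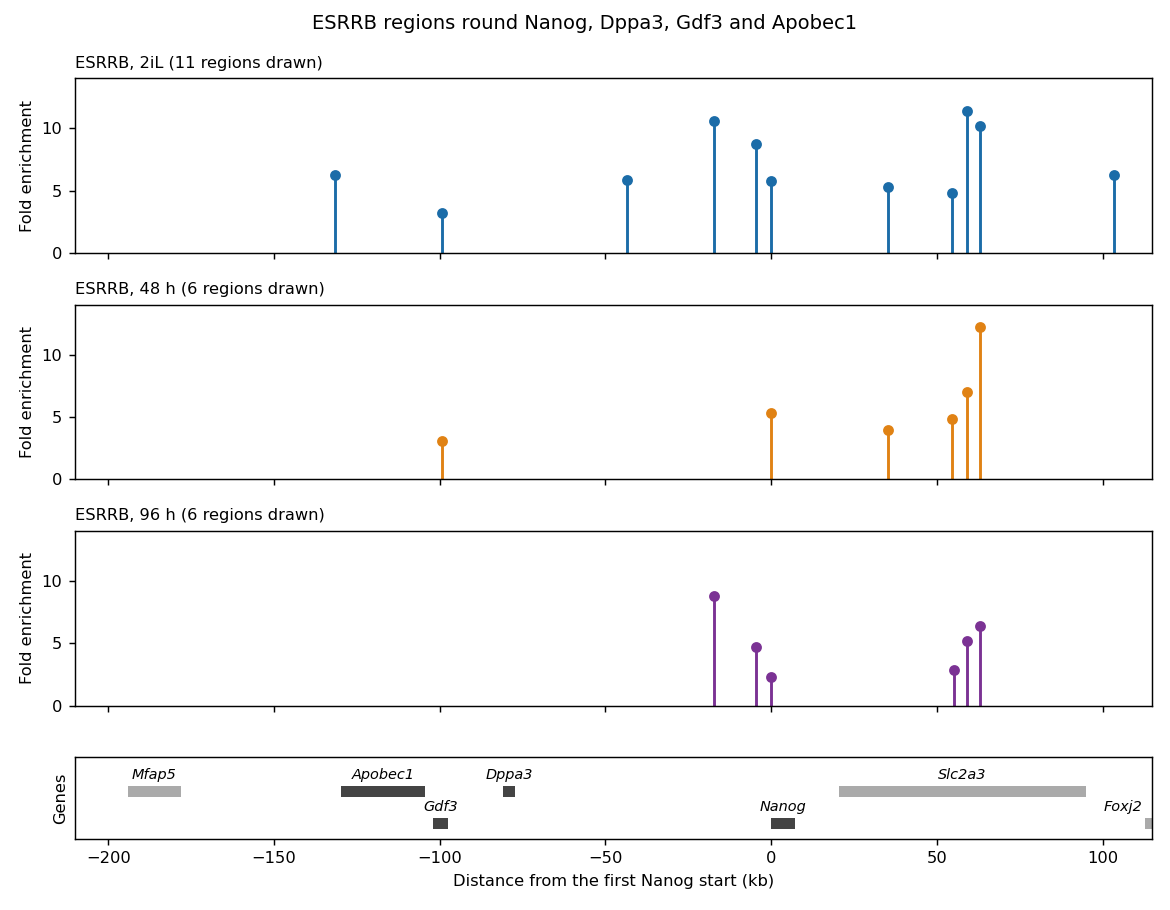
Fold enrichment of ESRRB regions (y axis) by distance of the summit from the first Nanog start in kb (x axis), with 1 panel per library and gene spans below, the 4 genes in dark grey. The panels draw 11 of the 12 sites, from -131.6 to 103.3 kb; the 48 h panel lacks those at -17.2 and -4.6 kb, and the 96 h panel has both.

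The strength of a region is its fold enrichment, the authors' ratio of summit reads to a local background. Whether that background came from the ESRRB library or its input is not stated. In 2iL the 12 folds ran from 3.21 to 11.4 with a median of 6.22, beside 5.88 over all 2iL regions, and 4 of the 12 were in the strongest 20% of that list. At 48 h the 7 folds ran from 3.09 to 12.2 with a median of 5.29, beside 4.98 over the whole list. At 96 h the 8 folds ran from 2.24 to 8.76 with a median of 3.76, beside 4.82 over the whole list. The strongest 20% of the list held 1 of the 7 at 48 h and 1 of the 8 at 96 h. Folds above the library median were 7 of 12 in 2iL, 4 of 7 at 48 h and 3 of 8 at 96 h. Counted by region, the neighbourhood's median lay above that of the library in 2iL and at 48 h, and below it at 96 h. The 8 regions at 96 h lay in only 7 sites, because a weak site was split, and the split lowers that median. With the highest fold of each site, the middle value of the 7 was 4.67, close to the 4.82 of the list. Its regions covered 16.8 kb in 2iL, 12.2 kb at 48 h and 7.89 kb at 96 h.

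At the Nanog promoter (chr6:122706808-122707629 in 2iL) a region was called in every library. Fold enrichment there stood at 5.80 in 2iL, then 5.29 (48 h) and 2.30 (96 h), from 84, 122 and 44 reads at the summit over local backgrounds of 13.7, 22.2 and 18.5 reads. The promoter region was near the middle of the library in 2iL and at 48 h, at the 48.6 and 55.7 percentiles of fold. At 96 h it was among the weakest, at the 2.29 percentile, and its −log10 q was 3.95. The summits of 2iL and 48 h were 2 bp apart.

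Both upstream Nanog sites had regions in 2iL and at 96 h and none at 48 h. The -4.6 kb site (chr6:122702078-122703601 in 2iL) reached folds of 8.76 and 4.67 in those libraries. Its summits held 131 reads (exact Poisson 95% interval 110 to 155) and 42 reads (30.3 to 56.8). These summits were 2 bp apart, and the nearest 48 h region began 4.01 kb from the 2iL summit. The -17.2 kb site (chr6:122689727-122690988 in 2iL) reached 10.5 and 8.76, with summits 16 bp apart. Its 107 reads in 2iL and 63 reads at 96 h put it at the 88.6 and 87.3 percentiles of those libraries, and at 96 h it was the strongest site of the neighbourhood. No 48 h region lay within 16.66 kb of it.

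Being called at 96 h and not at 48 h was uncommon in the whole series. It held for these 2 of the 12 sites (16.7%, exact Clopper-Pearson 95% interval 2.09 to 48.4) and for 3.7% of all 2iL regions. Among the 2720 regions of 2iL with a fold at least that of the -4.6 kb site, 66 (2.43%) had this pattern and 613 (22.5%) were not called at 48 h. That cut was set from these 2 sites after their pattern was seen, so it is description only. The interval for the 12 sites holds both 3.7% and 2.43%. The lowest local background was 8.09 reads at 48 h, 5.04 in 2iL and 5.84 at 96 h, a value that also depends on fragment length and is no measure of depth alone. At 48 h 5% of listed regions had a fold under 2.91, so an unlisted site may still have held ESRRB. The part of depth, and of the unstated threshold of the lists, in this pattern was not tested.

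**Figure D2:**
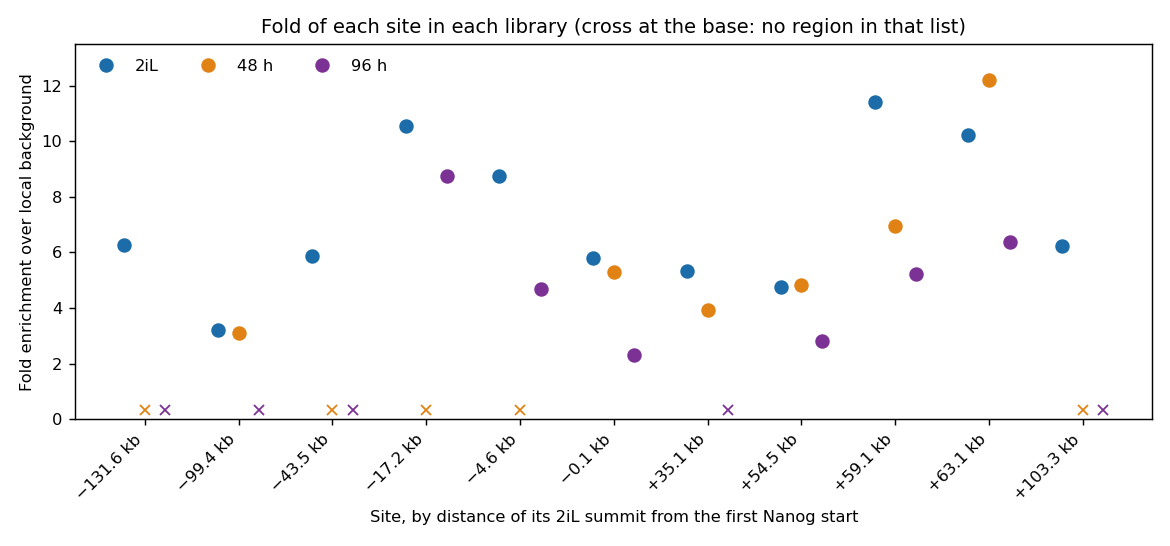
Fold enrichment (y axis) at 11 of the 12 sites (x axis, by distance from the first Nanog start), with 1 point per library and a cross at the base where the list has no region. At -17.2 and -4.6 kb the 48 h library has a cross, and at 63.1 kb its fold of 12.2 is the highest of the plot.

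Downstream of Nanog, 4 sites lay inside the span of Slc2a3, whose exons were not used here, and 3 of them, at 54.5, 59.1 and 63.1 kb, were called in all 3 libraries. The 59.1 kb site (chr6:122764212-122767304 in 2iL) had the highest 2iL fold of the neighbourhood, 11.4, and folds of 6.96 at 48 h and 5.21 at 96 h. It held 158 reads (134 to 185) in 2iL, 110 (90.4 to 133) at 48 h and 55 (41.4 to 71.6) at 96 h. Its region was broad, 3093 bp with 4 summits in 2iL, 3144 bp at 48 h and 2370 bp at 96 h, at the 99.2, 99.1 and 98.4 percentiles of width. At 48 h a second summit inside it, 57.9 kb from Nanog, had a fold of 4.09.

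The 63.1 kb site (chr6:122769851-122771125 in 2iL) followed another order. Folds there were 10.2 in 2iL, then 12.2 (48 h) and 6.37 (96 h), from 154, 163 and 56 reads. At 48 h it was the strongest site of the neighbourhood, at rank 506 of the library, while the 59.1 kb site 4.005 kb away stood at rank 2666. In 2iL the ranks were the other way round, 1727 and 1254. The highest summits of the 3 libraries at 63.1 kb lay within 66 bp of each other.

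The 54.5 kb site (chr6:122761741-122763282 in 2iL) showed folds of 4.77, 4.83 and 2.82 in 2iL, 48 h and 96 h. It held 2 summits in 2iL and at 48 h and 1 at 96 h. The 96 h summit lay 665 bp from the 2iL summit of highest fold and 11 bp from the other 2iL summit, which had a fold of 3.82. That 2iL summit held 64 reads and the 96 h summit 41. At 48 h the corresponding distances were 600 and 13 bp. The 35.1 kb site (chr6:122742234-122743065 in 2iL) showed folds of 5.33 and 3.95 in 2iL and 48 h, from 70 and 79 reads, and no region at 96 h.

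**Figure D3:**
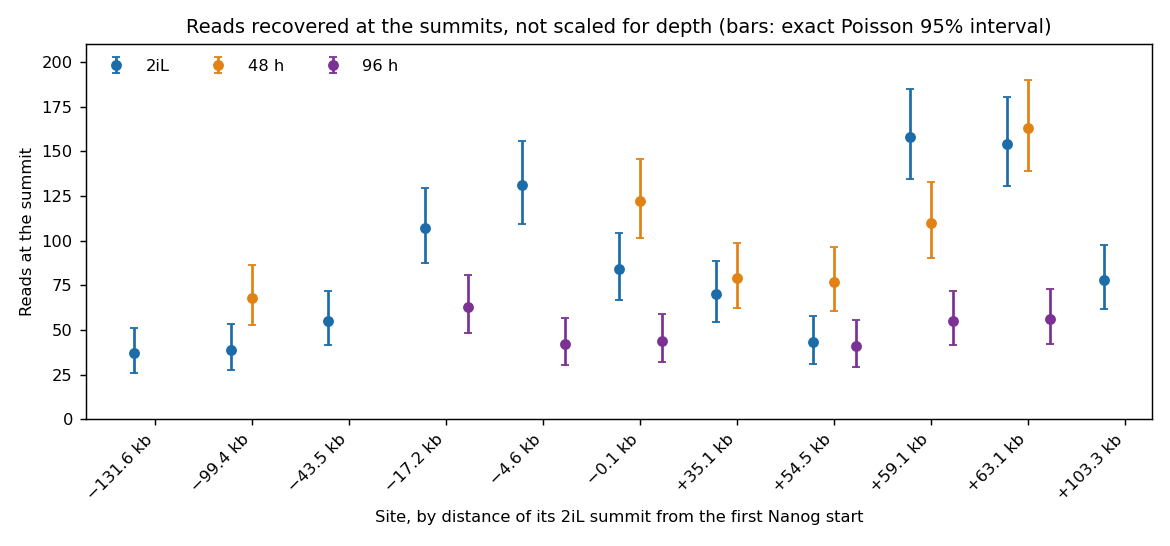
Reads at the highest summit of the same 11 sites (y axis, not scaled for depth) in each library, with exact Poisson 95% intervals, by distance from the first Nanog start (x axis). At 59.1 kb the values are 158 in 2iL and 55 at 96 h. The intervals cover counting error within a library and do not compare binding between libraries.

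On the Apobec1 side of the -17.2 kb site lay 4 sites, with 2iL folds of at most 6.29. Dppa3 had no region inside its span or within 10 kb in any library, and its nearest summits were 16700 bp away in 2iL, 17688 bp at 48 h and 60032 bp at 96 h. Those of 2iL and 48 h were lesser summits of the region in Gdf3, with folds of 2.16 and 1.94. The highest 2iL summit of that region lay 18.3 kb from Dppa3. Gdf3 held a region inside its span (chr6:122607622-122609927 in 2iL), the -99.4 kb site, at a fold of 3.21 in naive cells and of 3.09 at 48 h. It was not called at 96 h. This was the weakest site of the neighbourhood in 2iL, at the 2.98 percentile of fold, and among the broadest, 2306 bp with 6 summits. Its highest summit had 39 reads in 2iL and 68 at 48 h over backgrounds of 11.5 and 21.4, so the larger count at 48 h came with a larger background.

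The site nearest Apobec1, -131.6 kb from Nanog (chr6:122575697-122576248), lay 1894 bp outside the gene and was called in 2iL alone, with a fold of 6.29 from 37 reads.

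Between Dppa3 and Nanog, the -43.5 kb site (chr6:122662680-122664324) had 2 summits in 2iL, with folds of 5.86 and 3.43, and was called in no other library. The nearest 48 h region was 43.0 kb away and the nearest 96 h region 26.1 kb. At the far end, the 103.3 kb site (chr6:122810117-122810964), 8388 bp outside Slc2a3 and 9433 bp from Foxj2, a forkhead factor gene, was also called in 2iL alone, with a fold of 6.22 from 78 reads. The 3 sites called in 2iL alone had folds of 5.86 to 6.29. Those of the 5 sites called in every library ran from 4.77 to 11.4, so strength in 2iL did not separate the groups.

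Set against the whole list, 7 of the 12 regions of 2iL were called at 48 h (58.3%, 95% interval 27.7 to 84.8), beside 50.7% of all 2iL regions. At 96 h 7 of 12 were also called (58.3%, 27.7 to 84.8), beside 35% of all. The interval holds both background shares, so neither share differed from its list beyond counting error. Both later times had called 5 of 12 (41.7%, background 31.3%), 48 h without 96 h 2 of 12 (16.7%, background 19.4%), and neither time 3 of 12 (25%, background 45.6%). In the other direction all 7 regions of 48 h overlapped a 2iL region (100%, 95% interval 59.0 to 100, background 63.5%), as did 7 of 8 at 96 h (87.5%, 47.3 to 99.7, background 69.5%). Both intervals hold the background share. When each list was shortened to its 7018 strongest regions, 3 of 8 regions of 2iL were called at 48 h (37.5%, where 54.8% of all were) and 5 of 8 at 96 h (62.5%, 47.8% of all). At that length 3 of 5 regions of 48 h (60%, 54.8% of all) and 5 of 8 regions of 96 h (62.5%, 48.7% of all) were called in 2iL. With a q of 1e-05 or less, the 96 h count dropped from 8 to 5, and the promoter region was among those left out.

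Folds of shared sites were set side by side within these limits. Between 2iL and 48 h, 5 of 7 shared sites had the lower fold at 48 h, beside 66.8% of all 6981 shared regions, and the median ratio of 48 h to 2iL was 0.956, beside 0.839 over all. At 96 h all 7 shared sites had the lower fold than in 2iL, beside 73.5% of all 4822 shared regions, and the median ratio was 0.534, beside 0.768 over all. The lowest of these ratios was that of the Nanog promoter, 0.397, at the 6.30 percentile of all shared regions. The highest was that of the -17.2 kb site, 0.831, at the 57.5 percentile. The 2iL library serves both comparisons. From 48 h to 96 h, where the background share with a lower fold was 64.3%, all 5 shared sites had the lower fold at 96 h. With the highest summit of each region, their ratios ran from 0.435 at the promoter to 0.749 at 59.1 kb. At 54.5 kb the ratio of 0.583 sets summits 600 bp apart against each other. The 48 h summit 13 bp from the 96 h summit had a fold of 3.37, so a ratio of matched summits would be higher. The 2iL to 96 h ratio there, 0.591, has the same limit.

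**Figure D4:**
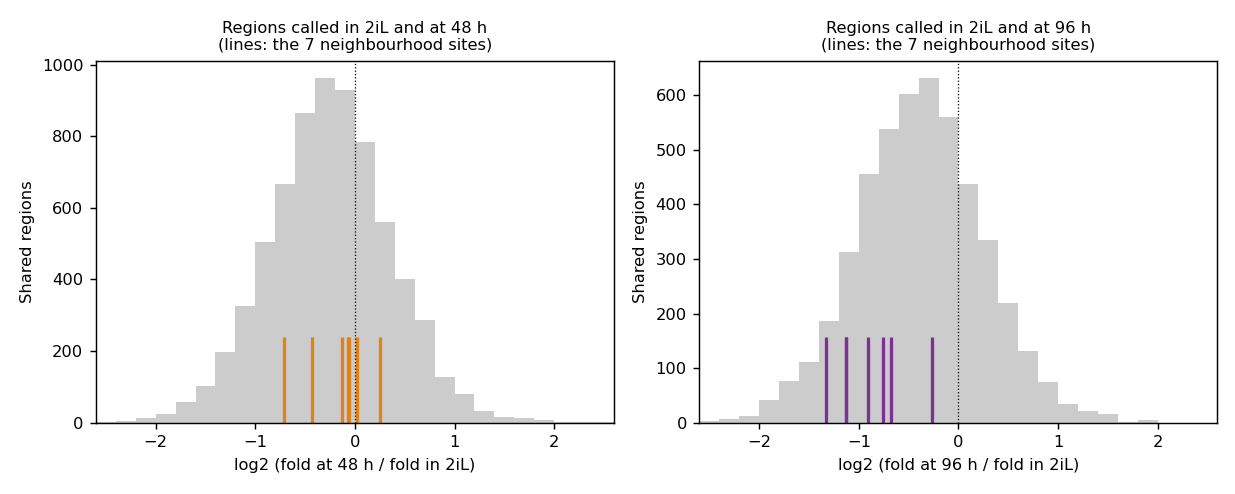
Number of shared regions (y axis) by the log2 ratio of their folds (x axis), 48 h over 2iL on the left and 96 h over 2iL on the right, with coloured lines for the 7 neighbourhood sites of each. At 96 h all 7 lines lie below 0, and at 48 h 5 of 7 do.

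Other genes of the naive network were counted in the same way, on a list of 14 that includes Esrrb itself, Klf2, Klf4, Klf5, Tfcp2l1, Pou5f1 and Sox2. Their 2iL counts within 100 kb ran from 4 at Nr0b1 and Gbx2 to 13 at Esrrb, with a median of 6. The 48 h list contained 49 of their 90 2iL regions (54.4%, 95% interval 43.6 to 65.0), and the 96 h list contained 33 (36.7%, 26.8 to 47.5). The neighbourhood's shares of 58.3% have intervals that include both. Of the 90 regions, 1 (1.11%) was called at 96 h and not at 48 h, and it was 1 of the 8 within 100 kb of Tbx3. This pattern held for 2 of the 10 within 100 kb of Nanog. The same 2 are among the 9 within 100 kb of Slc2a3, the 7 each of Dppa3 and Gdf3 and the 6 of Apobec1. These windows overlap and count the same 2 sites again, so the pattern is not particular to Nanog and has no further instance there. The pool of 14 genes and a single gene are unlike sets, and the difference was not tested. At 96 h Nanog had 6 regions within 100 kb, as did its neighbour Slc2a3, which shares sites with it, and the 14 genes had 0 to 5. Within 50 kb Nanog had 4, as did Esrrb and Sall4, while Zfp42 had 5 and Slc2a3 had 6. Windows run outwards from the gene span, so longer genes have larger windows in all these counts. The spans are 160.5 kb at Esrrb, 74.6 kb at Slc2a3 and 7.1 kb at Nanog. Of the 13 2iL regions of Esrrb, 12 lay inside the gene.

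**Figure D5:**
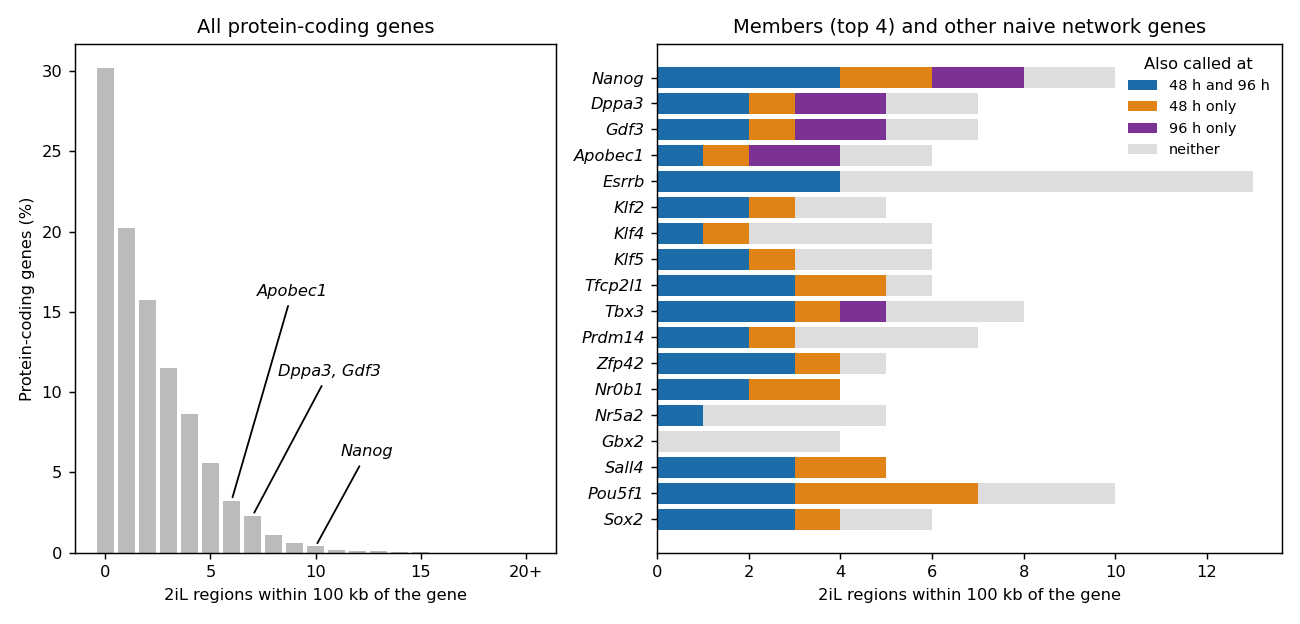
Left, percent of protein-coding genes (y axis) by number of 2iL regions within 100 kb (x axis), with the 4 genes marked. Right, the 2iL regions within 100 kb of the 4 genes and of 14 other naive network genes (x axis, number of regions), coloured by the later times at which they were called; Nanog has 10, of which 2 were called at 96 h only.

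Just past the Apobec1 side of the window, a region called in all 3 libraries lay 6.04 kb outside, within Rimklb (chr6:122471249-122472589 in 2iL), with folds of 7.55, 5.19 and 6.32. On the other side the last 2iL region lay 3.88 kb inside the window and the next one 121 kb outside it. Summit distances of shared sites were set beside those of all shared regions. From 2iL to 48 h the highest summits of all 7 were within 100 bp, beside 88.3% of all shared regions. The median distance was 45 bp, beside 27 bp over all shared regions. From 2iL to 96 h 6 of 7 were within 100 bp, beside 86.4% of all, and the median was 47 bp, beside 30 bp. The exception was the 54.5 kb site described above.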

How the data were processed

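The data were 3 peak lists, 1 per ESRRB library, and the input libraries were not used directly. Whether the authors' folds drew on them is not stated. Per the submitters' processing notes, bcl2fastq 2.20.0.422, BWA, SAMtools, Picard and MACS2 were used, with build mm10. Which step each tool ran, and the threshold of the lists, is not given in the sources. Each line the authors deposited is a summit with a fold (a ratio over the local background, with a pseudocount of 1), a −log10 p-value and q-value, and a score that was not used. Regions were unique intervals with the fold of their highest summit. Reads and local background at a summit were solved from its deposited fold and p, and 100% of summits gave whole reads within 0.05. The recovery and the overlaps were tested on simulated data. The median region had 51 reads at its summit in 2iL, 68 at 48 h and 45 at 96 h. An overlap of 1 bp or more made regions shared. Genes were RefSeq spans on GRCm38.p6, without exons. Percentiles of fold are within a library. The named sites are the sites of the window, and the named genes the 4 members, genes in the window or nearest a site, and a list of 14 naive network genes. A site and a gene that this rule names are counted and not reported here. Members, lists and tests were chosen with earlier results of these data known. Python 3.11.15 with scipy 1.17.1 was used. No test between conditions was possible with 1 library each. Alternatives were stricter overlap, summits within 200 bp, lists cut to equal length, a q of at most 1e-05, windows of 50 and 200 kb, counts of summits and another choice of summit.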

Additional observations from a re-analysis of the deposited data

How the results depend on the processing

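Of 42 recomputed counts, shares and medians, 37 stayed within 1.5 times the reported count, inside the reported interval or within the spread of the sites' folds. The others were the counts of summits in place of regions (23, 17 and 13 in 2iL, 48 h and 96 h) and, with a q of 1e-05 or less, the 96 h count of 5 and the share of 96 h regions called in 2iL, 100%. These limits are wide, so the tally is no measure of stability. At equal list length the share of 2iL regions called at 48 h went from 58.3% to 37.5% and still counted as inside. The share of 48 h regions called in 2iL went from 100% to 60% and did too. The 96 h list set that length, so its count of 8 could not move. Under overlap of at least 50% of both regions, 6 of 12 regions of 2iL were called at each later time. Choosing the summit of highest −log10 p changed the fold of 1 of 27 regions, the 54.5 kb site in 2iL, from 4.77 to 3.82. No paired analysis was possible because each condition had 1 library. The counts of 7 to 12 regions limit every share here.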
